A study of Homo sapiens with 16 samples.

Results

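The mitochondrial ribosomal protein genes examined here are the rows of the count table whose symbol is MRPL or MRPS followed by a number and at most 1 letter from A to C. The rule used symbols and no measured value. It gave 78 of 25221 genes, 49 named for the large subunit and 29 for the small subunit. The counts were made from MOLM13, a human acute myeloid leukemia line (FAB M5a, carrying MLL-AF9, passages 8 to 12), and from K562, a human BCR-ABL erythroid line of CML blast crisis (CML, chronic myeloid leukemia; passages 12 to 18). Cells of each line received either 0.1% DMSO or 20 μM Ro 08-2750 (Ro), a small molecule that inhibits RNA binding by MUSASHI-2, in the same DMSO content for 4 h. Each of the 4 groups had 4 libraries, numbered as pairs 1 to 4 within a line, which gave 16 libraries of the 3′ ends of mRNAs. Each line stands for a single patient's leukemia, and the labels do not say that pairs were separate cultures, so p-values measure only the spread between these libraries.

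Mitochondria carry their own ribosome, which translates the few membrane proteins of the respiratory chain and ATP synthase that mitochondrial DNA encodes. Its ribosomal RNAs come from mitochondrial DNA, while its proteins are encoded in the nucleus, made in the cytosol and imported. Many of these proteins have bacterial counterparts, and others were added during the evolution of mitochondria. Myeloid leukemia cells are known to depend on mitochondrial translation and respiration.

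Total counts per library ranged from 3143129 to 43571060, the shallowest being the DMSO libraries 2 and 4 of K562. CPM below is a gene's count scaled to a common library total, after TMM factors that level the libraries over most genes. In this paragraph only, the limits at 3 counts and the marker levels use library totals without TMM factors. Because the kit reads 3′ ends, a count does not grow with transcript length. At 3 counts a gene had 0.0689 CPM in the deepest library and 0.954 CPM in the shallowest, a limit of counting error alone. Of the 8 erythroid markers, 7 were higher in every K562 library than in any MOLM13 library, while HBE1 was listed at 0 throughout. Of the 7 myeloid markers, FLT3 (119 to 165 CPM), HOXA9 (27.1 to 67.2), MEIS1 (68.8 to 117) and CSF3R (11.5 to 16.5) were higher in every MOLM13 library than in any of K562, where HOXA9 was listed at 0. CD33, LYZ and SPI1 overlapped between the lines, and the highest LYZ level, 38.3 CPM, was in K562. A single locus, LOC100507412, took 4.11% to 24.3% of the counts in MOLM13 and 0.269% to 6.44% in K562.

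The stretch before the start site of 70 members was available in RefSeq (GRCh38.p14), from 250 bases before to 50 bases after the start, and 8 members had none. Exact matches of 6 short motifs were counted on both strands: NRF1 (GCATGCGC), ETS (CCGGAAG), YY1 (AAGATGG), SP1 (GGGCGGG), E-box (CACGTG) and the CCAAT box (CCAAT). None of these motifs contains another, but matches may overlap in a window. The ETS motif stood in 29 of 70 member windows (41.4%), against 10.7% of all 27305 windows and 16.5% of the 12674 windows of genes tested in these cells. The YY1 motif stood in 23 (32.9%), against 6.06% and 6.95%. The NRF1 motif, bound by nuclear respiratory factor 1, stood in 6 (8.57%), against 3.27% and 4.92%. Any of these 3 motifs was present in 44 member windows (62.9%), compared with 18.2% of all and 25.3% of tested windows. The YY1 matches lay mostly downstream of the start, with 16 of 24 starting after it, against 35.8% of the matches in all windows and 47.2% in those of tested genes. The SP1 motif was held by 50% of member windows and 48.6% of tested windows, the E-box by 10% and 9.14%, and the CCAAT box by 28.6% and 36.1%.

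Windows of 5 members on which the results below turn are printed from 200 bases before to 30 bases after the start, 5′ to 3′ on the gene's strand, with matches of the 6 motifs in capitals. MRPL37 (chr1:54199967-54200196, plus strand) is the member with the smallest p for a change with Ro in MOLM13 once the pair is in the model, and holds an E-box and CCAAT boxes. MRPL47 (chr3:179604609-179604838, minus strand) holds ETS, YY1 and CCAAT matches. MRPL41 (chr9:137551679-137551908, plus strand), a member that differed between the lines, holds 6 SP1 and 4 CCAAT matches. MRPS18B (chr6:30617640-30617869, plus strand), the member of highest level, has NRF1 23 bases before the start and YY1 starting 24 bases into the transcript. MRPS22 (chr3:139343794-139344023, plus strand), with the widest difference between the lines, has 3 ETS matches.
MRPL37: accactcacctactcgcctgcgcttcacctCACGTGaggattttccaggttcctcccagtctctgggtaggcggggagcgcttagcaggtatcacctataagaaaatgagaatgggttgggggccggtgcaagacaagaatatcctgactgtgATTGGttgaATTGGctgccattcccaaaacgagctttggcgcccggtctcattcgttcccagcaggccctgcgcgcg
MRPL47: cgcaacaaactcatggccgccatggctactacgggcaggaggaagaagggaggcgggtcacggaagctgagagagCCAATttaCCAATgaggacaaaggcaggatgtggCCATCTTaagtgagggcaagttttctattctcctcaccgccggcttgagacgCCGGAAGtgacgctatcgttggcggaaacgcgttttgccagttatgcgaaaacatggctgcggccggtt
MRPL41: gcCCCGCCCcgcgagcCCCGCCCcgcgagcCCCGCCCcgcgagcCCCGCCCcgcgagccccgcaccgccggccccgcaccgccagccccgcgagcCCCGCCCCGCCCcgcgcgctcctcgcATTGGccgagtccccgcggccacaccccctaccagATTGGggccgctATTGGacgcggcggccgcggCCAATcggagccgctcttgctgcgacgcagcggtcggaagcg
MRPS18B: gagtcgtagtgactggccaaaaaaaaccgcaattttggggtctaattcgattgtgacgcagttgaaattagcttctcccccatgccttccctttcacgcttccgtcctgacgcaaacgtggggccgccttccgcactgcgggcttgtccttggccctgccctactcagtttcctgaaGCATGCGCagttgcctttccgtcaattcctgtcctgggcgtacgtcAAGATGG
MRPS22: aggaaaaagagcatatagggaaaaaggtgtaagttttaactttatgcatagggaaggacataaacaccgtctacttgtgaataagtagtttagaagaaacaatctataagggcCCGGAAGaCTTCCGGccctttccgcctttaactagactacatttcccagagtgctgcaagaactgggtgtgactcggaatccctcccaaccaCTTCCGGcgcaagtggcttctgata

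**Figure D1:**
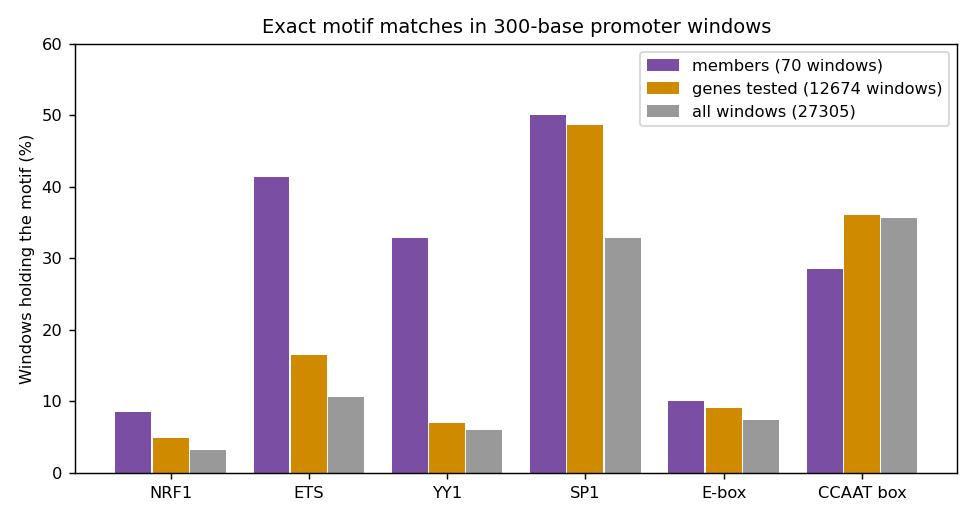
Percentage of promoter windows that hold an exact match of each motif, for the members, for genes tested in these cells and for all windows. The members stand above both backgrounds for ETS (41.4%) and YY1 (32.9%), and near the tested genes for SP1 (50%) and the E-box (10%).

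The members' levels spanned about the range of mid-abundance mRNAs. Of the 78 members, 64 reached at least 10 counts in at least 4 libraries and were tested, 41 of the large and 23 of the small subunit by symbol. Counts and medians by subunit below go by symbol, so MRPS18A and MRPS36, described below, count with the small subunit. The median level of the tested members was 63.9 CPM in MOLM13 and 80.2 CPM in K562 with DMSO. The other 14 members had at most 2 counts in any library, and 11 of them were listed at 0 in all 16. They were MRPL2, MRPL12, MRPL30, MRPL33, MRPL34, MRPL40, MRPL49, MRPL53, MRPS2, MRPS11, MRPS12, MRPS16, MRPS17 and MRPS24. This set includes MRPL12, the protein of the stalk that recruits translation factors, and MRPS12, which lies at the decoding centre. Among them, 13 of 14 share exonic bases with another gene in GENCODE 29, against 28 of the 64 tested. Within the last 500 bases up to the outermost gene end in GENCODE 29, 7 of 14 against 17 of 64 do. That end need not be the 3′ end that these libraries read. For MRPL33, counted among the 7, it lies at 27988087 on chromosome 2, against 27779733 in RefSeq. Of all rows 25%, and of the members 17.9%, had fewer than 3 counts in every library, so the listed value of 0 is given here as a property of the table.

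MRPS18B, 1 of 3 human relatives of the bacterial small-subunit protein bS18, had the highest mean level in both lines. It was at 214, 251, 294 and 497 CPM in MOLM13 DMSO libraries 1 to 4, and at 428, 532, 357 and 321 CPM in those of K562. MRPS18C was far lower, at 21.2 ± 2.79 CPM in MOLM13 and 37.9 ± 28 CPM in K562 (SD, n = 4). MRPS18A, which despite its symbol is a component of the large subunit, was the lowest of the tested members, at 2.82 ± 0.704 CPM in MOLM13 and 3.09 ± 1.64 CPM in K562 (SD, n = 4). The order of these 3 paralogs was the same in both lines, and the level ranges of MRPS18A, MRPS18C and MRPS18B did not overlap within either line. Of the exonic bases in the last 500 bases of MRPS18A and MRPS18C, 100% are shared with RSPH9 and ABRAXAS1, respectively, on the other strand, so their counts are uncertain.

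MRPS27, a small-subunit protein with pentatricopeptide repeats, ranked next in MOLM13 at 143, 187, 231 and 485 CPM with DMSO, and had 189, 283, 155 and 156 CPM in K562. MRPS21, the counterpart of bacterial bS21, had 193 ± 38 CPM in MOLM13 and 172 ± 44 CPM in K562 (SD, n = 4). MRPL3, whose bacterial relative lies near the peptidyl transferase centre, had 141 ± 21.5 and 141 ± 22 CPM, and MRPL1, a protein of the L1 stalk, had 124 ± 22.1 and 97.5 ± 42.1 CPM (SD, n = 4). The libraries of the 2 lines overlapped for each of these 4 genes. At the low end, MRPL19, the counterpart of bacterial bL19, had 4.19 ± 0.728 and 4.53 ± 2.79 CPM, and MRPS9, the counterpart of uS9, had 14.3 ± 1.32 and 11.2 ± 4.87 CPM (SD, n = 4).

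**Figure D2:**
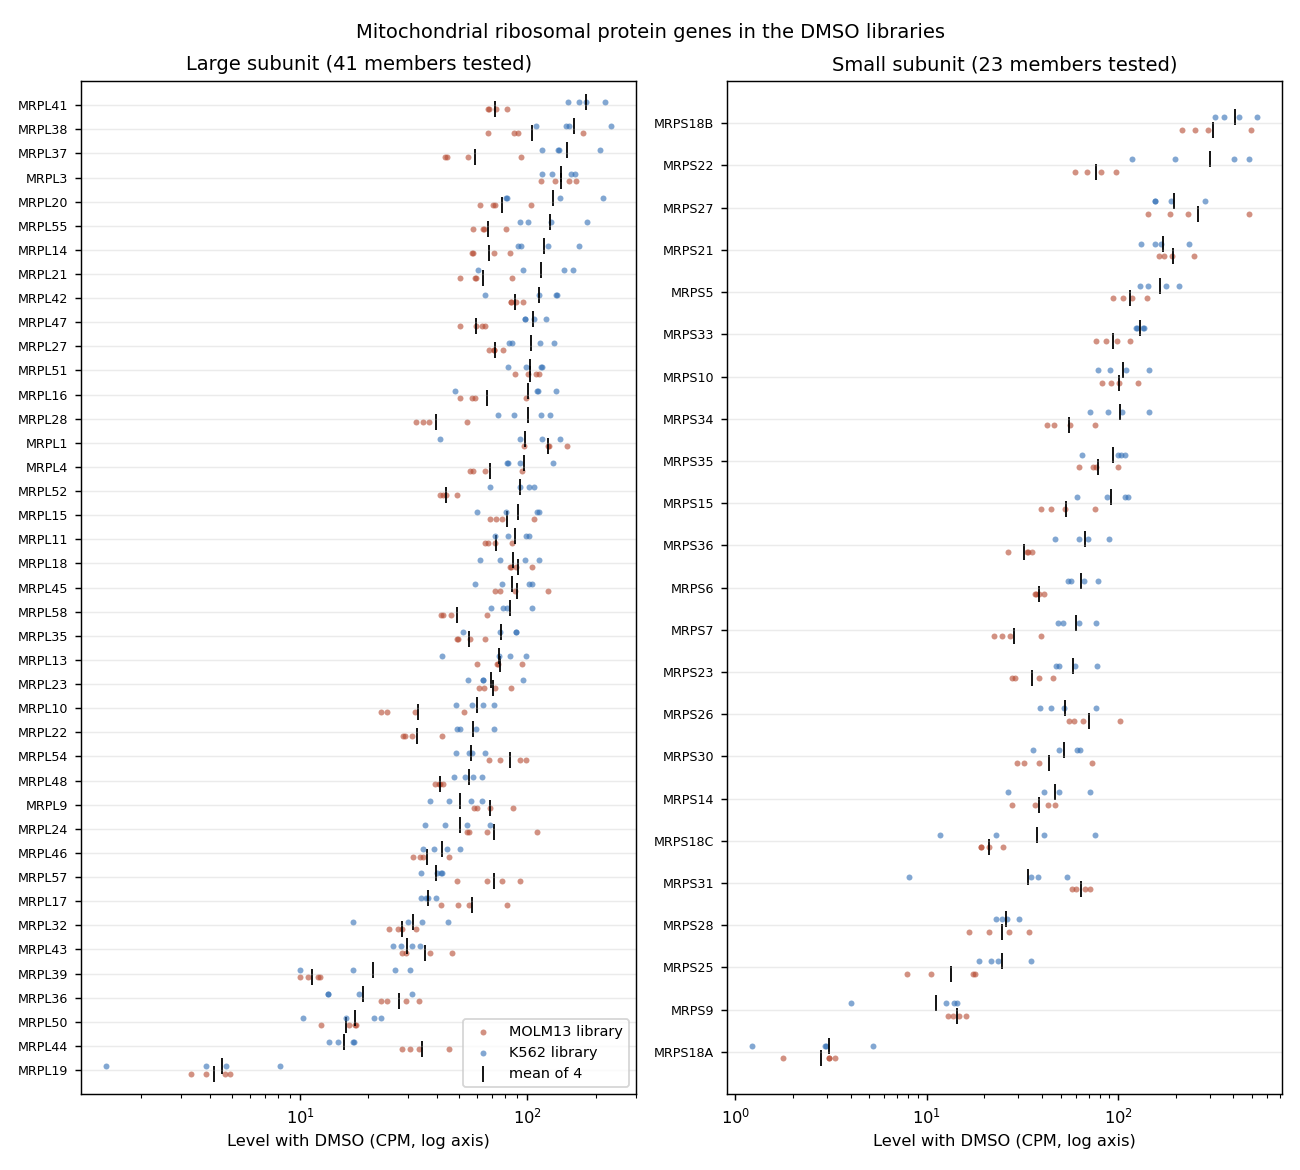
Level of each tested member in the 4 DMSO libraries of MOLM13 and of K562 (CPM, log axis), with the mean of each group as a black tick, ordered by the K562 mean within each subunit. MRPS18B stands highest and MRPS18A lowest, and MRPS22 shows the widest gap between the lines, 76.8 against 301 CPM.

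More members were lower than higher in MOLM13 relative to K562 without Ro. In edgeR's quasi-likelihood test on the 8 DMSO libraries, 20 of 64 members were lower in MOLM13 at a p under 0.05 after Benjamini-Hochberg adjustment over all genes tested (31.2%, against 20.3% of all 15268 genes tested), and 4 were higher (6.25%, against 21.1%). The median log2 difference was -0.31 for the members, 0.024 for the 4785 other genes whose mean level lay between the 10th and 90th percentile of the members, and -0.0047 for all genes. The DMSO libraries did not overlap for 18 members lower in MOLM13 (28.1%, against 19% of genes) and for 5 higher (7.81%, against 20.5%). By symbol, both subunits shared the direction, with a median of -0.28 for the large and -0.37 for the small subunit. Members called lower included 12 named for the large and 8 for the small subunit, with MRPS36 among these 8. The 4 called higher were all named for the large subunit. Scaled to library totals alone, the median of all genes shifted to -0.41 and the members called became 1 higher and 35 lower, with 7031 of 15268 genes called in either direction against 6313 under TMM.

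MRPS22, a small-subunit protein with no bacterial counterpart, had 81.6, 59.2, 97.4 and 68.9 CPM in MOLM13 and 403, 119, 484 and 197 CPM in K562. The groups did not overlap, and the K562 libraries spread widely among themselves. Its log2 difference was -1.97 (SE 0.383, edgeR adjusted p = 0.000964).

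MRPL28, the counterpart of bacterial bL28, had 34.7, 32.4, 37.1 and 54.3 CPM in MOLM13 and 87.2, 115, 74.1 and 126 CPM in K562, a log2 difference of -1.33 (SE 0.245, edgeR adjusted p = 0.000636). MRPL37, a large-subunit protein without a bacterial counterpart, had 43.6, 44.2, 54.9 and 94.1 CPM against 138, 209, 117 and 136 CPM, also -1.33 (SE 0.289, edgeR adjusted p = 0.00225). MRPL41, another protein added in mitochondria, had 68.2, 67, 72.6 and 81.6 CPM against 181, 170, 151 and 221 CPM, or -1.31 (SE 0.203, edgeR adjusted p = 0.000149). All 3 were lower in every MOLM13 library than in any K562 library. MRPL52, of the large subunit, had 44.1 ± 3.41 CPM in MOLM13 and 92.8 ± 17 CPM in K562 (SD, n = 4), a log2 difference of -1.06 (SE 0.202, edgeR adjusted p = 0.000812).

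The opposite direction was found for 4 members. MRPL44, a large-subunit protein with a ribonuclease III-like fold, had 30.3, 28.1, 33.4 and 45.3 CPM in MOLM13 and 17.2, 13.4, 14.7 and 17.2 CPM in K562, a log2 difference of 1.14 (SE 0.218, edgeR adjusted p = 0.000861). MRPL57 had 49.1, 66.6, 77.6 and 92.9 CPM against 42.1, 41.6, 40.3 and 34.2 CPM, a difference of 0.87 (SE 0.223, edgeR adjusted p = 0.00663). MRPL17 and MRPL54 differed by 0.65 and 0.58 (edgeR adjusted p = 0.0347 and 0.0348). Of the exonic bases in the last 500 bases of MRPL44 45% are shared with AC073641.1 on the other strand, so its count is uncertain. For each of these 4 genes every MOLM13 library was above every K562 library. Under scaling to library totals only 1 of the 4, MRPL44, was still called. MRPL10, which anchors the ribosomal stalk, had 22.8, 24.2, 32.1 and 53 CPM in MOLM13 and 63.6, 48.5, 57.2 and 71.7 CPM in K562, or -0.85 (SE 0.273, edgeR adjusted p = 0.0226), with library 4 of MOLM13 inside the K562 range. MRPS36, named for the small subunit but known as a component of the 2-oxoglutarate dehydrogenase complex, had 32.4 ± 3.87 against 67.1 ± 17.6 CPM (SD, n = 4), or -1.05 (SE 0.225, edgeR adjusted p = 0.00201).

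Leaving out DMSO library 2 or 3 of MOLM13 lowered the number of members called between the lines from 24 to 15, while the genes called went from 6313 of 15268 to 5048 of 14754 and 5112 of 14843. The lines also differ in disease, passage and sequenced depth, which cannot be told apart from line in these libraries. In bulk RNA, fewer cells that express a gene and less of its RNA per cell cannot be told apart either.

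The summed level of the 78 members differed more between pairs than between treatments. In MOLM13 it was 3651, 3700, 4286 and 5677 CPM with DMSO and 3248, 3580, 3724 and 5221 CPM with Ro in pairs 1 to 4. Pair 4 was highest in both groups, and the groups overlapped. In K562 the sum was 6061, 6419, 5059 and 4818 CPM with DMSO and 7204, 5840, 5279 and 4893 CPM with Ro. The sum was lower with Ro in 4 of 4 pairs of MOLM13 and higher in 3 of 4 pairs of K562. In MOLM13 the share of counts on LOC100507412 moved with the pair as well, from 22.3% and 24.3% in pair 1 to 4.11% and 6.29% in pair 4, and its part in the members' levels was not tested.

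**Figure D3:**
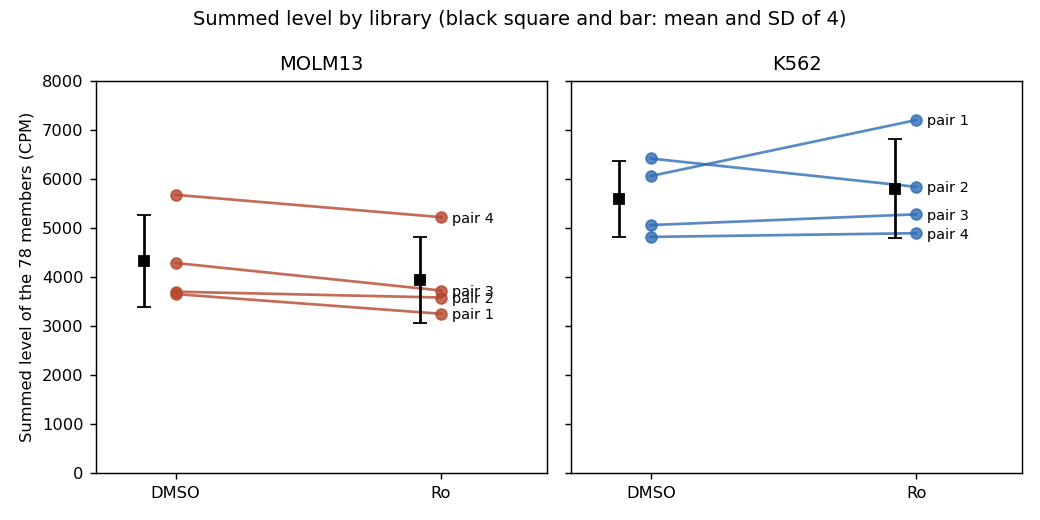
Summed level of the 78 members in each library (CPM), with lines joining the DMSO and Ro libraries of a pair, and the mean and SD of 4 libraries in black. All 4 MOLM13 lines slope down, pair 4 lies highest at 5677 and 5221 CPM, and the K562 lines slope both ways.

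The Ro comparison asks whether the transcripts of the mitochondrial ribosome change within 4 h of treatment. In MOLM13, the members were slightly lower with Ro, and no member passed the adjusted threshold without the pair in the model. With edgeR's quasi-likelihood test, 0 of 64 members were called (0% of all 15031 genes were), and 0 had an unadjusted p under 0.05 (1.16% of genes). DESeq2 and limma-voom also called 0 members, with 0 at an unadjusted p under 0.05. The median log2 change, Ro relative to DMSO, was -0.13 for the members, with 53 of 64 below 0, compared with -0.026 for 4531 other genes of like level and 0.00043 for all genes. Groups did not overlap for 0 members (1.35% of genes). The fitted changes ran from -0.31 for MRPL37 to 0.24 for MRPS25, a small-subunit protein chosen here for its value.

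Same-numbered DMSO and Ro libraries deviated together from their group means in every pair of both lines, so the change within pairs was examined as well. In MOLM13, 29 of 64 members were lower with Ro in all 4 pairs (45.3%, against 14.9% of genes), and 0 were higher in all 4 (10.2% of genes). By symbol, the 29 were 20 of 41 large-subunit and 9 of 23 small-subunit members. The median change of the members was -0.20, -0.077, -0.20 and -0.065 in pairs 1 to 4, compared with -0.033, -0.014, -0.054 and -0.043 for other genes of like level. The large subunit had medians of -0.22, -0.12, -0.23 and -0.064, and the small subunit had -0.10, -0.037, -0.17 and -0.066. Pairs 1 and 3 carried most of the difference from genes of like level, and pair 4 the least.

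**Figure D4:**
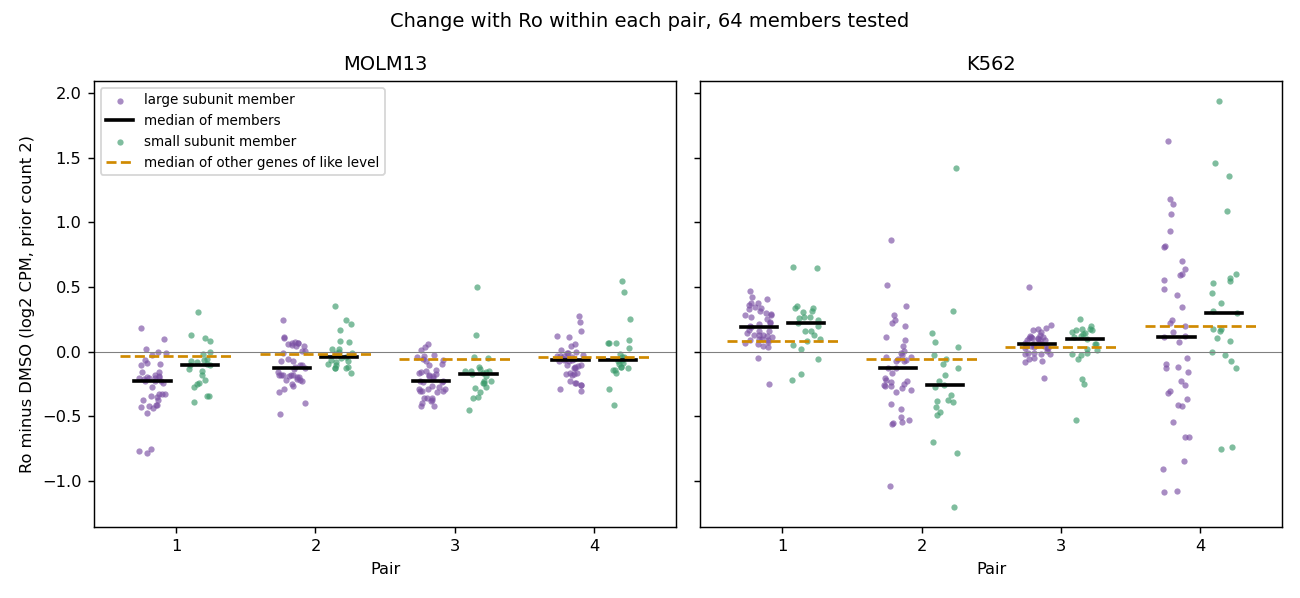
Log2 change with Ro within each pair for the 64 tested members, by subunit, with the members' medians as black bars and the median of other genes of like level dashed. MOLM13 members lie mostly below 0 in each pair (medians -0.20 to -0.065), while K562 medians change sign between pairs and the points of pair 4 spread most widely.

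When the pair was entered as a block in edgeR, 2 members of 64 were called lower in MOLM13 (3.12%, against 1.17% of genes and 95 of 4531 of like level) and 0 higher (0.938% of genes). At an unadjusted p under 0.05 there were 21 lower (32.8%, against 9.65% of genes and 14.3% of genes of like level) and 1 higher (1.56%, against 7.55% and 8.81%). Of those 21, 18 were of the large and 3 of the small subunit. DESeq2 with the same block, which called 260 of 15031 genes, called the same 2 members, MRPL37 and MRPL24. Both genes are also in the study's own tables of changed genes, so their values here are not independent evidence of a direction.

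MRPL37 had 43.6, 44.2, 54.9 and 94.1 CPM with DMSO and 31.4, 36.8, 44.4 and 77.2 CPM with Ro in MOLM13. The groups overlapped, while within each pair the Ro library was the lower one, with changes of -0.48, -0.26, -0.31 and -0.29 on the log2 scale. The blocked change was -0.31 (SE 0.074, edgeR adjusted p = 0.0317), and without the block it had the same size with SE 0.318 (edgeR adjusted p = 1). MRPL24, whose bacterial relative uL24 binds ribosomal RNA early in assembly, had 55.3, 54.6, 66.5 and 111 CPM with DMSO and 43.4, 47, 51.9 and 93.9 CPM with Ro. It was also lower in each pair, with changes of -0.35, -0.22, -0.36 and -0.24, with a blocked change of -0.27 (SE 0.0715, edgeR adjusted p = 0.0487) and an edgeR adjusted p of 1 without the block. Neither was called in K562, where the blocked changes were -0.12 (edgeR adjusted p = 0.947) for MRPL37 and 0.05 (edgeR adjusted p = 0.975) for MRPL24. With the block, both calls were lost without pair 1, 2 or 3. The genes called over all also fell, from 317 of 15031 to 106 of 14957, 187 of 14585 and 49 of 14445. Without pair 4, MRPL37, MRPL32 and MRPL36 were called, with 358 of 14554 genes called, so MRPL24 lost its call whichever pair was left out.

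The members of the large subunit described next in MOLM13 were picked among those with the same sign in all 4 pairs. They did not pass the adjusted threshold. MRPL47, the counterpart of bacterial uL29 near the exit tunnel, had 65, 50.8, 59.3 and 63.5 CPM with DMSO and 48.8, 44.9, 48.6 and 56.6 CPM with Ro, a blocked change of -0.24 (SE 0.0738, edgeR adjusted p = 0.0977). MRPL36, the counterpart of bL36, had 24.3, 22.6, 29.4 and 33.3 CPM with DMSO and 14.1, 18.5, 22.7 and 32.5 CPM with Ro, or -0.31 (SE 0.0999, edgeR adjusted p = 0.109). MRPL51, a large-subunit protein added in mitochondria, had 103 ± 11.1 CPM with DMSO and 88.3 ± 16.1 CPM with Ro (SD, n = 4), or -0.21 (SE 0.0731, edgeR adjusted p = 0.138). The pair changes were widest for MRPL36, from -0.78 in pair 1 to -0.03 in pair 4.

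MRPL10 and MRPL11, which form the base of the stalk where translation factors bind, had blocked changes of -0.22 and -0.16 in MOLM13 (edgeR adjusted p = 0.177 and 0.25). MRPL41 and MRPL54 had -0.15 and -0.16 (edgeR adjusted p = 0.284 and 0.24). Of the abundant small-subunit members, MRPS18B had -0.18 and MRPS27 -0.21 (edgeR adjusted p = 0.173 and 0.146), and MRPS21 had -0.09 (edgeR adjusted p = 0.524). MRPL1 and MRPL13 had blocked changes of -0.01 and -0.0014 (edgeR adjusted p = 0.975 and 0.994), with pairs of both signs. Members with a bacterial counterpart and those without had the same median change of -0.13 in MOLM13, over 37 and 26 members.

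In MOLM13, 1 library decided the sign of the unpaired median. Without DMSO library 4, in which the members' sum was highest, 40 of 64 members were above 0 and the median was 0.027, against 0.020 for all genes. Ro library 4 of the same pair stayed in that fit. With the block, leaving out 1 pair at a time kept the median between -0.15 and -0.091.

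In K562 no member changed at the adjusted threshold, with or without the pair. The edgeR test without the block called 0 of 64 (0% of 15227 genes) and found 0 at an unadjusted p under 0.05 (1.23% of genes), and DESeq2 and limma-voom also gave 0 and 0. The groups did not overlap for 0 members (1.24% of genes). The median change was 0.051 for the members, 0.073 for 4692 other genes of like level and 0.021 for all genes. By pair the members' median was 0.20, -0.19, 0.062 and 0.16, and that of genes of like level was 0.080, -0.052, 0.039 and 0.20, so the members went with those genes in sign in each pair. Pairs 2 and 4 hold the shallow DMSO libraries. Upper-quartile and library-total scaling moved the members' median to -0.0047 and -0.012 and that of all genes to -0.035 in both, so under these scalings the members stayed above all genes. Without DMSO library 3 or 4 the members lay below all genes, at -0.036 against 0.023 and -0.016 against 0.010. Without Ro library 1 the members' median was -0.070, with 17 of 64 above 0, and that of all genes was -0.011.

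With the block, 0 members were called in K562 (0% of genes). At an unadjusted p under 0.05 there were 3 higher (4.69%, against 0.847% of genes and 1.43% of genes of like level) and 0 lower (1.27% of genes). In all 4 pairs 6 members were higher (9.38%, against 6.84% of genes) and 0 lower (4.65% of genes). The 6 were MRPL39, MRPL13, MRPL35 and MRPL50 of the large subunit and MRPS36 and MRPS35 by the small-subunit symbol.

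MRPL39, a large-subunit protein that resembles a tRNA synthetase, had 30.4, 17.2, 26.1 and 9.99 CPM with DMSO and 33.2, 31.3, 29.4 and 22.8 CPM with Ro in K562. Its log2 changes by pair were 0.13, 0.86, 0.17 and 1.18, so the pairs with the shallow DMSO libraries carried most of it, and the blocked change was 0.56 (SE 0.207, edgeR adjusted p = 0.947). In MOLM13 it was lower with Ro in each pair, where the DMSO mean was 11.3 ± 1.06 CPM and the Ro mean 10 ± 0.938 CPM (SD, n = 4). MRPL13, the counterpart of bacterial uL13, had 99.3, 84.3, 74.8 and 42.2 CPM with DMSO and 133, 99.8, 79.9 and 74.6 CPM with Ro in K562, a blocked change of 0.40 (SE 0.157, edgeR adjusted p = 0.947). MRPS36 had 89.2, 62.8, 69.6 and 46.8 CPM with DMSO and 111, 78.2, 77.4 and 70.9 CPM with Ro, or 0.35 (SE 0.137, edgeR adjusted p = 0.947). For these genes the levels with and without Ro overlapped. MRPL39 and MRPL13 are also in the study's tables of changed genes, so they are not independent evidence either.

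**Figure D5:**
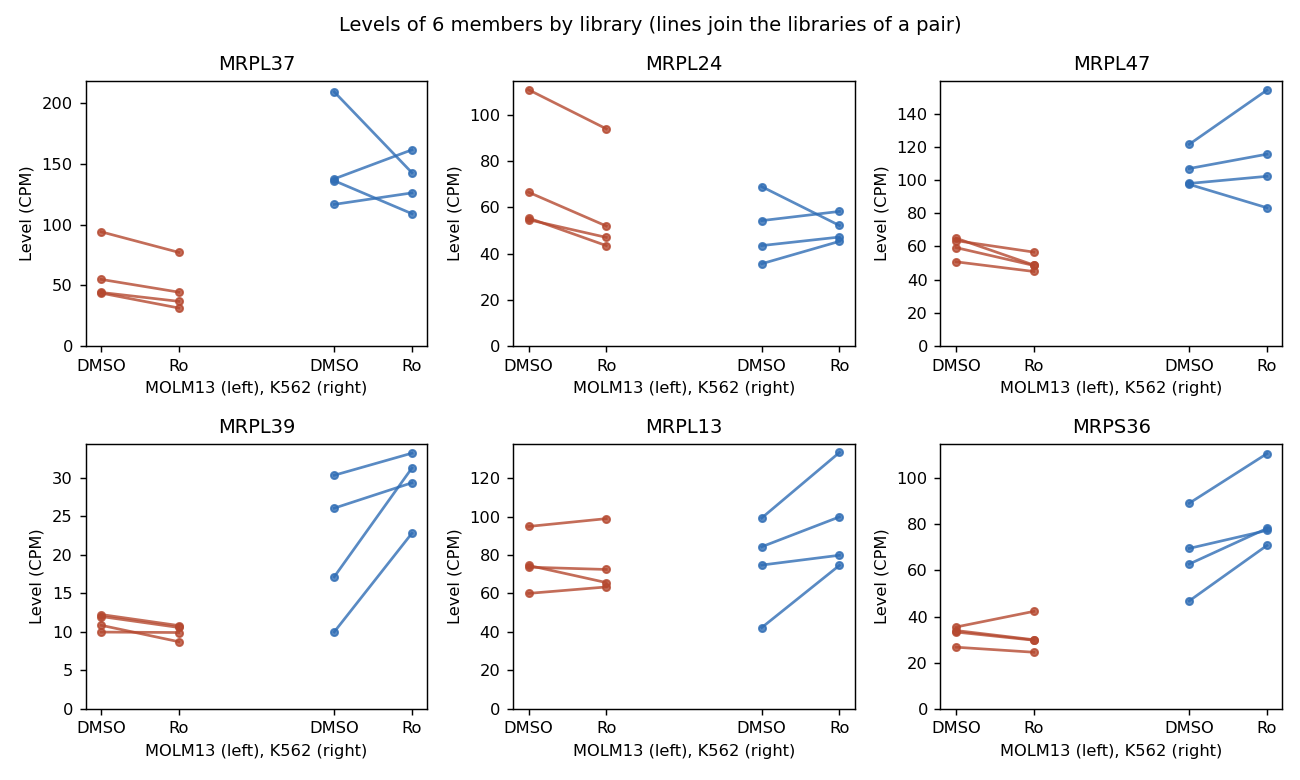
Levels of 6 members in each library (CPM), with lines joining the DMSO and Ro libraries of a pair, MOLM13 on the left and K562 on the right of each panel. MRPL37, MRPL24 and MRPL47 slope down in all 4 MOLM13 pairs, and MRPL39, MRPL13 and MRPS36 slope up in all 4 K562 pairs.

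MRPL35 and MRPL50 had blocked changes of 0.22 and 0.17 in K562, and MRPS35 had 0.16 (edgeR adjusted p = 0.947 for each). MRPS35 changed by 0.02, 0.03, 0.01 and 0.57 in pairs 1 to 4, so that nearly all of it came from pair 4. MRPS18C spread widely among the K562 DMSO libraries, at 40.9, 75.9, 23 and 11.7 CPM, and its pair changes were 0.65, -1.20, 0.25 and 1.36. With pairs 1 and 3 alone and the block, MRPS18C was the 1 member of 64 called in K562, in the higher direction, while 418 of 13667 genes were called. In that fit 58 of 64 members were above 0, with a median of 0.12 against 0.0050 for all genes. Other genes of like level were also mostly higher in pairs 1 and 3 (65% and 62.9% of them), with medians of 0.080 and 0.039. The fit rests on 4 libraries and leaves out both pairs with a shallow DMSO library.

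The response to Ro was compared between the lines with the interaction of line and treatment over all 16 libraries. Of 64 members 0 were called (0% of 16224 genes), and 0 had an unadjusted p under 0.05 (1.34% of genes). The median of the members was -0.18, where a negative value means a lower change in MOLM13, compared with -0.099 for other genes of like level and -0.024 for all genes. With the pair as a block 0 were called (0% of genes), while 5 had an unadjusted p under 0.05 in the lower direction (7.81%, against 2.93% of genes and 5.46% of genes of like level) and 0 in the higher (3.08% of genes). The 5 were MRPL39, MRPL13, MRPS36, MRPL15 and MRPL45. DESeq2 called 0 members. A difference in the members' response between the lines was therefore not shown.

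The remaining genes of mitochondrial translation were followed as lists written by hand, and no gene of them was called with Ro in either line, with or without the block. Of 6 further ribosomal proteins that carry other symbols, 5 were found, all tested, with a median change of -0.17 in MOLM13 and -0.015 in K562. AURKAIP1, a small-subunit protein, had 152 ± 38.3 CPM with DMSO and 132 ± 37 CPM with Ro in MOLM13 (SD, n = 4), a blocked change of -0.18 (SE 0.0715, edgeR adjusted p = 0.185). CHCHD1, GADD45GIP1 and PTCD3 had blocked changes of -0.22, -0.17 and -0.15 (edgeR adjusted p = 0.188, 0.259 and 0.289). At an unadjusted p under 0.05 these 4 of 5 were lower in MOLM13 with the block, against 9.65% of genes and 14.3% of genes of like level. DAP3, a small-subunit GTP-binding protein, was at -0.028 (edgeR adjusted p = 0.884).

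Of the translation factors 11 of 12 were tested, with medians of -0.045 in MOLM13 and 0.13 in K562. GFM1, the mitochondrial elongation factor G, had a blocked change of -0.18 in MOLM13 (SE 0.0734, edgeR adjusted p = 0.201) and 0.13 in K562 (edgeR adjusted p = 0.947). List genes were matched by symbol to the first row that carries it. For TUFM, the elongation factor Tu, that row had gene identifier 100616256 and 0 counts in each library. Whether the row counts TUFM mRNA was not checked, so no level is given for TUFM. The assembly factors, 22 tested in MOLM13 and 23 in K562 of 25, had medians of -0.069 and 0.077. The gene tested in K562 alone was the row matched to GTPBP10, with gene identifier 101927446 and at most 14 counts in a library. Whether that row counts GTPBP10 mRNA was not checked, and the K562 median includes it. TFB1M, which methylates the small ribosomal RNA, had -0.25 in MOLM13 (SE 0.0875, edgeR adjusted p = 0.141), and C1QBP, a matrix protein that mitochondrial translation needs, had -0.26 (SE 0.103, edgeR adjusted p = 0.196). Factors of mitochondrial transcription and RNA processing, 8 of 9 tested, had medians of -0.092 and 0.14. TEFM, the mitochondrial transcription elongation factor, was higher with Ro in 4 of 4 MOLM13 pairs, at 0.23 (SE 0.0998, edgeR adjusted p = 0.235), while ELAC2, which trims the 3′ ends of mitochondrial tRNAs, was at -0.16 (SE 0.0722, edgeR adjusted p = 0.26).

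The changes were also set beside the promoter motifs. Members with and without the ETS motif, 23 and 34 tested with a window, had median changes with Ro of -0.12 and -0.15 in MOLM13, and those with and without YY1, 19 and 38, had -0.16 and -0.13. Between the lines the medians were -0.51 and -0.26 with and without ETS, and -0.25 and -0.47 with and without YY1. These splits are descriptions, and their differences were not tested.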

How the data were processed

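Counts per gene of 16 libraries were deposited by the authors as whole reads without normalization. The submitters' processing notes name Trim Galore, STAR 2.5.3a, SAMtools 1.5 and hg38, and the counting program and annotation are not given in the sources used here, so how reads on overlapping genes were split is unknown. Reads were made with the QuantSeq 3′ kit. Testing was by edgeR 4.0.16 under R 4.3.3, with TMM, the quasi-likelihood test, Benjamini-Hochberg adjustment and a threshold of 0.05, for each line without the pair, and a gene entered when 4 libraries reached 10 counts. Changes by pair used log2 CPM with a prior count of 2. Alternatives were the replicate block, DESeq2 1.42.0, limma-voom (limma 3.58.1), other scalings and filters, a fit of all libraries, removal of the trend with level (loess span 0.3), and leaving out libraries or pairs. Scripts were tested on simulated data. Tables used Python 3.11.15 and pandas 2.3.3, and figures matplotlib 3.10.9. Annotation overlaps came from GENCODE 29 and windows from RefSeq.

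Pairs come from the titles. Within a pair, the distances of the DMSO and Ro libraries from the mean of their own group correlated at 0.384 to 0.831 across genes in MOLM13 and at 0.11 to 0.417 in K562, so the pair numbers were treated as pairing. What the libraries of a pair share is not stated.

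The members and lists were chosen with earlier results of these data known. Named members were, per line, up to 6 in each direction with the smallest p among those of 1 sign in all 4 pairs, the 5 of highest and 3 of lowest level, up to 5 in each direction by line difference among those called, those called with the block, and 11 fixed by role or by the study's tables, plus up to 4 genes per other list by p.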

Additional observations from a re-analysis of the deposited data

Results flagged for a closer look

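Among 128 groups of 4 libraries examined, in 8 a single library stood apart from the other 3 by Dixon's criterion, which chance gives in about 1 of 20 groups. In MOLM13 with Ro, library 4 was the highest for MRPL24 (93.88 CPM), MRPL44 (45.71 CPM), MRPL52 (53.12 CPM) and MRPS21 (240.3 CPM), and it had the lowest share of the members' summed level on the large subunit (57.38%). Library 4 of MOLM13 with DMSO had the lowest level of MRPS18A, 1.777 CPM. In K562 with Ro, library 1 was the highest for MRPL51 (141.6 CPM) and MRPS18C (64.1 CPM). 2 members, MRPL39 and MRPS35, had opposite signs of change with Ro in all 4 pairs of each line, lower in MOLM13 and higher in K562. The share of all genes that meet this rule was not counted. Some of these changes were very small, such as the log2 change of -0.0084 for MRPL39 in pair 4 of MOLM13. Nearly all of the MRPS35 change in K562 came from pair 4. The interaction difference was -0.6158 for MRPL39 and -0.2276 for MRPS35, and neither was called by edgeR (adjusted p = 1 for both, or 0.766 with the pair as a block).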

How the results depend on the processing

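Without the pair, 0 members were called for Ro in either line under each other tool, scaling, filter or left-out library that was tried. In MOLM13 the replicate block gave 2 calls in edgeR and 2 in DESeq2, where 317 and 260 of 15031 genes were called. Across the fits that leave out a library or a pair the number of members called ran from 0 to 3. The median member change in MOLM13 ran from -0.2622 to 0.02735 when 1 library was left out, and was -0.099 with the trend with level removed. In K562, pairs 1 and 3 alone with the block gave 1 call among the members and 418 among 13667 genes, with 58 of 64 members above 0. Of other genes of like level, 65% and 62.9% were higher with Ro in those pairs. The members called between the lines numbered 15 to 33 when 1 library was left out and 19 with the shared number as a block, though that number does not pair the lines (mean correlation -0.0435, with 1 of 4 K562 and 0 of 4 MOLM13 libraries correlating best with their own number). The block changed no other call of a treatment effect.

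Of 351 alternatives of 36 named changes, 301 kept direction and side of the threshold, 11 lost and 4 gained a call, and 35 changed sign, none of these a called value. The sign of 15 changes turned. When 1 library was left out, the MOLM13 log2 change ran from -0.6357 to 0.001718 for MRPL37, -0.5761 to 0.01161 for MRPL24, -0.5366 to 0.09187 for MRPL10, -0.1096 to 0.2629 for MRPS18A, -0.4552 to 0.1027 for MRPS18B, -0.181 to 0.08439 for MRPS36 and -0.1513 to 0.1212 for MRPL13, which was -0.001372 and -0.01534 with the block in edgeR and DESeq2. In K562 it ran from -0.0008314 to 0.1807 for MRPS35, -0.02113 to 0.2694 for MRPL50, -0.1093 to 0.07888 for MRPL10, -0.3783 to 0.003578 for MRPS18A, -0.05096 to 0.1903 for MRPS18B, -0.3048 to 0.5881 for MRPS18C, -0.26 to 0.05181 for MRPL37 and -0.1069 to 0.1849 for MRPL24. The cause was not tested. Counts were fewest in the K562 DMSO libraries 2 and 4.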

Other observations

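The split of the members' RNA between the subunits differed little between groups. By symbol, the large subunit took 59.4% ± 2.05 of the tested members' summed CPM in MOLM13 with DMSO and 59% ± 1.12 with Ro, and 58.8% ± 2.74 and 57.5% ± 1.06 in K562 (SD, n = 4). The single libraries ran from 56.1% in K562 DMSO library 3 to 62.7% in K562 DMSO library 4.

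As a share of all counts, the members took 0.293% to 0.496% of a MOLM13 DMSO library and 0.602% to 0.702% of a K562 DMSO library, ranges that did not overlap. These shares are unscaled, and LOC100507412 took up to 22.3% of a MOLM13 DMSO library. After TMM scaling the sums over the tested members did overlap, at 3651 to 5677 CPM in MOLM13 and 4818 to 6419 CPM in K562.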
